A study of Homo sapiens with 13 samples.

Results

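Genes of the epithelial-mesenchymal transition (EMT) were followed by ribosome profiling and RNA sequencing in MDA-MB-231 cells, a human breast cancer line of mesenchymal appearance and triple-negative type. There were 10 such genes, taken by their symbols: the transcription factors SNAI1, SNAI2, ZEB1, ZEB2 and TWIST1, the cadherins CDH1 and CDH2, the mesenchymal proteins VIM and FN1, and YBX1. All 10 were among the 24875 gene symbols of the Silvestrol experiment, and 8 (all but SNAI1 and TWIST1) were among the 13121 symbols of the INK128 experiment. Ribosome footprints (RFs) are the mRNA fragments protected by translating ribosomes. Silvestrol is an inhibitor of eIF4A, the RNA helicase of the cap-binding complex eIF4F, and INK128 is an inhibitor of the kinase mTOR.

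The Silvestrol experiment held RF libraries of untreated cells and of cells kept with either the vehicle DMSO or Silvestrol at 25 nM, for 1 h or for 2 h. Passage 4 cells were used for a second set of 2 h libraries, all other libraries were from passage 3, and mRNA was sequenced at 2 h from passage 3, in 1 library per treatment. In the INK128 experiment, RFs and total RNA were sequenced at passage 3 after 2 h of DMSO or 200 nM INK128, in 1 library each. All 13 libraries came from the same cell line, so no p-value measures the spread between tumors. Without a block for the passage, p-values measure the spread between a pair of passages. Where the passage was fitted as a block, that difference was taken out. Little spread was then left per gene, and those p-values lean on a spread estimated over many genes. The labels of 2 libraries conflict within themselves: the Silvestrol 2 h RF library of passage 3 has a field that reads 1 h, and the DMSO mRNA library has a field that reads untreated and a data column with no treatment in its name. They were used as their titles give them, and every value of mRNA change or translation efficiency with Silvestrol rests on that DMSO mRNA library. Counted reads ranged from 2.63 M to 30.96 M (M, mega) in the RF libraries, with both libraries of passage 4 (6.38 M and 2.63 M) the shallowest, and were 49.61 M and 24.41 M in the mRNA libraries. The INK128 values came without counts, so their depth is unknown.

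During EMT, epithelial cells lose E-cadherin (CDH1) and their junctions and gain vimentin, fibronectin and motility. SNAIL (SNAI1), SLUG (SNAI2), ZEB1 and ZEB2 are zinc-finger repressors that bind E-box sequences in the CDH1 promoter, and TWIST1 is a basic helix-loop-helix factor that acts with them. YB-1 (YBX1) is a cold-shock domain protein that binds mRNA and is known as a promoter of EMT through translation, and its mRNA is known to carry a 5′ terminal oligopyrimidine (TOP) sequence, the hallmark of mRNAs whose translation depends on mTOR.

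The E-boxes are what ties the repressors to the cadherin, so those of the CDH1 promoter are shown first, read from GRCh37 on the + strand, with the E-box (CAGGTG or CACCTG, which are each other's reverse complement) in capitals. Positions are counted from the annotated transcript start at base 1 of the RNA.
E-box at -80, chr16:68771105-68771130: ctgtggccggCAGGTGaaccctcagc
E-box at -29, chr16:68771156-68771181: ctccggggctCACCTGgctgcagcca
E-box at 22, chr16:68771206-68771231: aactgcaaagCACCTGtgagcttgcg
Of 19807 promoters of the same extent (250 bases before to 50 after the start), 20.37% held at least 1 of these words and 0.6% held 3 or more. Among the other EMT genes, the ZEB1 promoter also held 3, those of SNAI1 and YBX1 held 1 each, and those of SNAI2, ZEB2, TWIST1, VIM, CDH2 and FN1 held 0. A match to these letters is a description of the sequence and not a bound site.

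At baseline VIM had by far the highest footprint level of the set, and SNAI2, ZEB1 and FN1 followed. In the 4 control RF libraries (untreated, DMSO 1 h, and DMSO 2 h at both passages), the level per length, as RPKM (reads per kilobase of transcript and per M reads of the library), was 6294 ± 1033 (SD, n = 4) for VIM. VIM encodes vimentin, the intermediate filament of mesenchymal cells, and its mRNA level lay at percentile 99.9 of the 10505 genes that passed the minimum levels (mean RF RPKM of at least 1, mean mRNA RPKM of at least 0.3). SNAI2 followed at 48.4 ± 11.0, then ZEB1 at 26.0 ± 2.22 and FN1, which encodes fibronectin, at 23.2 ± 6.65. ZEB2 had 3.51 ± 0.434 RPKM, SNAI1 had 2.00 ± 0.643 and CDH2, which encodes N-cadherin, had 0.562 ± 0.17. The ranges over the 4 libraries did not overlap between VIM and SNAI2, SNAI2 and ZEB1, FN1 and ZEB2, SNAI1 and CDH2, or CDH2 and CDH1. They overlapped between ZEB1 and FN1, between ZEB2 and YBX1, between YBX1 and SNAI1, and between CDH1 and TWIST1. In bulk RNA, fewer cells that express a gene and less RNA per cell cannot be told apart.

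The E-cadherin gene CDH1 was close to silent. It had 4 RF reads in untreated cells, 3 with DMSO at 1 h, and 0 and 1 with DMSO at 2 h in passages 3 and 4, which is at most 0.0456 RPKM. Its mRNA was counted with 26 reads with DMSO and 17 with Silvestrol, 0.0853 and 0.109 RPKM. TWIST1 was listed with 0 reads in all 9 libraries, where 3 reads over its coding length would be between 0.0998 RPKM in the deepest library (DMSO mRNA) and 1.88 RPKM in the shallowest (Silvestrol RFs, passage 4). These floors take the whole coding length as counted, and a listed 0 does not show that reads of the gene could be counted. TWIST2, its close paralog, was also listed at 0 in the libraries at 2 h. SNAI1, SNAI2, ZEB1 and ZEB2, the 4 other transcription factors, all had footprints in every library, so the low CDH1 level stood beside SLUG and ZEB1 as the most translated repressors.

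**Figure D1:**
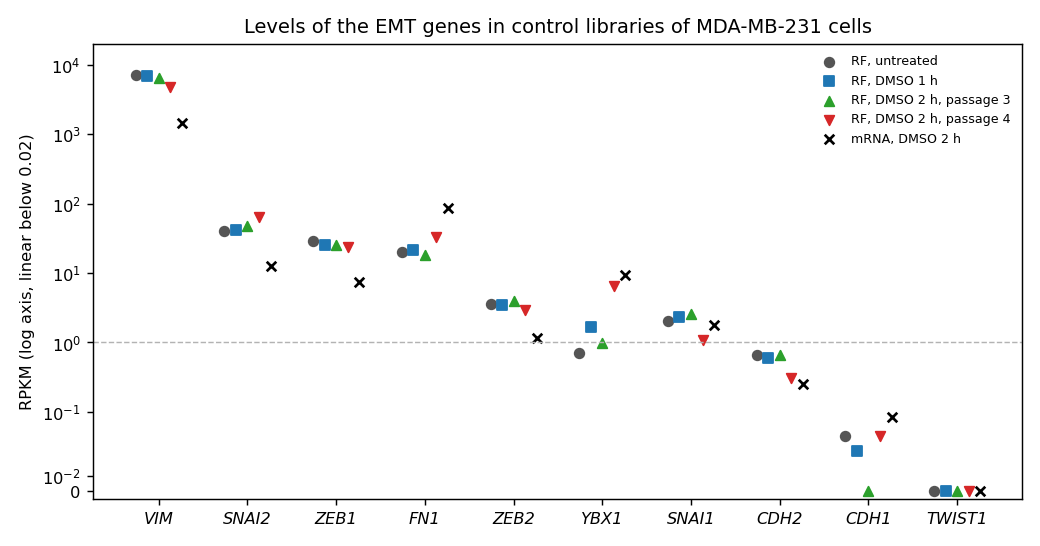
Levels of the 10 EMT genes in the control libraries of the Silvestrol experiment, as RPKM on a log axis that is linear below 0.02. Each point is 1 library: 4 RF libraries and the DMSO mRNA library. VIM lies between 1461 and 7031 RPKM, CDH1 at 0.0853 RPKM or below, and TWIST1 at 0. FN1, YBX1 and CDH1 have their mRNA point above their RF points, and the dashed line marks 1 RPKM.

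Markers of the mesenchymal state had higher levels than the shorter of the epithelial lists, with exceptions in both. Of 9 mesenchymal markers (VIM, CDH2, FN1, ZEB1, SPARC, AXL, CD44, CALD1 and MSN), 7 passed the minimum levels, and the exceptions were CDH2 and SPARC, both below 1 RPKM. Of 10 epithelial markers, 9 were listed (KRT19 was not analysed here) and 5 passed, with a median RF level of 1.63 RPKM against 87.6 RPKM for the mesenchymal list. CDH1, ESRP1, GRHL2 and RAB25 were below 1 RPKM. The tight-junction claudins CLDN4 at 94.9 ± 20.5 RPKM (SD, n = 4) and CLDN7 at 23.5 ± 3.08 RPKM had the highest levels of these 9. In a longer list of 24 epithelial and junction genes 15 passed, and KRT18, JUP and DSP had 47.4, 43.2 and 42.7 RPKM with DMSO at 2 h in passage 3 and 82.1, 40.8 and 35.5 RPKM in passage 4, so many epithelial genes were translated. The receptors that define the triple-negative type were at 0 reads (ESR1), at 1 read (PGR) and at 3.71 ± 0.342 RPKM (ERBB2) in the control RF libraries. ERBB2 mRNA was not low, at 25.8 RPKM with DMSO and percentile 70.1 of the genes tested. The summed level of the mesenchymal markers ranged from 5643 to 7883 RPKM in the control libraries and from 6268 to 7679 RPKM with Silvestrol, most of it VIM (4789 to 7031 RPKM in the control libraries), and that of the epithelial markers from 105.1 to 163 RPKM and from 111.7 to 168.5 RPKM.

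Translation efficiency (TE) is the RF RPKM divided by the mRNA RPKM, here at 2 h with DMSO in passage 3. Over the genes tested its median was 1.84. VIM, SNAI2, ZEB2 and ZEB1 lay above that median, with a TE of 4.42 for VIM (percentile 83.8), 3.81 for SNAI2, 3.46 for ZEB2 and 3.37 for ZEB1, and SNAI1 lay below it at 1.44 (percentile 39.4). YBX1, with a TE of 0.106 (percentile 0.7), and FN1, with 0.212 (percentile 2.9), stood at the other end. FN1 had the second highest mRNA level of the set, 87.1 RPKM, and only 18.4 RPKM of footprints in the same culture. The YBX1 value rested on 5 RF reads. In the DMSO libraries of the INK128 experiment, where TE was taken against total RNA, the median gene had a TE of 14.7. FN1 had 16.1 and YBX1 18.3, so both lay above the median there. The TE of each gene has no replicate, since there was 1 mRNA library per treatment.

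YBX1 could not be measured well in the Silvestrol experiment. The length that was counted was read from the ratio of deposited counts to deposited RPKM. It was taken per coding length and relative to the median gene. For YBX1 it was between 15.2% and 30.7% in the RF libraries at 2 h. The other members with reads had between 97.5% and 102.6%, except VIM with 79.6% to 85.0%. The authors left out positions with non-unique reads, and the annotation names 10 pseudogenes after YBX1. The 4 control RF libraries held 29 YBX1 reads in all, with RPKM values from 0.705 to 6.57, so the YBX1 values of this experiment are uncertain. In the INK128 table YBX1 had 332 FPKM (the same scale for fragments in place of reads) of footprints with DMSO, and its values there are given with the other INK128 results.

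With Silvestrol at 2 h, SNAI1, SNAI2, ZEB1 and ZEB2 each had RF RPKM values above both DMSO values in both passages, as 20.5% of all 10505 genes did, while 40.1% lay below both. This was the case for 4 of the 7 members that passed the minimum levels, and in VIM, FN1 and YBX1 the ranges overlapped. With edgeR's quasi-likelihood test on the 4 RF libraries at 2 h and Benjamini-Hochberg adjustment over all 10505 genes, 0 of the 7 members passed an adjusted p of 0.05, where 2.47% of genes passed with higher and 7.88% with lower RFs. At an unadjusted p under 0.05 there were 2 members, SNAI2 and ZEB1, beside 31.3% of genes, and with DESeq2 1 member passed, SNAI2 with higher RFs, beside 5.36% of genes (DESeq2 gave SNAI1 and YBX1 no adjusted p). With the passage as a block in the edgeR fit, 5 members passed with higher RFs and 1 with lower RFs, where 25.0% of genes passed with higher and 28.1% with lower RFs. Outside the block, among the alternatives run, the members called were SNAI2 by DESeq2 and, by edgeR with 1 DMSO library left out, SNAI2 (without passage 4) and FN1 (without passage 3). RPKM is scaled to each library's total, and on that scale the median gene changed by -0.17 in passage 3 and -0.15 in passage 4 on the log2 scale, against -0.01 in the edgeR fit. The edgeR changes and the RPKM ratios of the members are therefore on scales that differ by about that shift.

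SNAI2, the gene of SLUG, had like ratios in both passages. Its RF level at 2 h was 47.7 RPKM with DMSO and 75.6 RPKM with Silvestrol in passage 3, and 64.1 and 99.9 RPKM in passage 4. Both Silvestrol values lay above both DMSO values, at 1.58-fold and 1.56-fold. By edgeR the log2 change was 0.77 ± 0.21 (SE; adjusted p = 0.0741), and with the passage as a block it was 0.78 ± 0.13 (edgeR adjusted p = 7.49e-09). DESeq2 gave an adjusted p of 0.0190. SNAI2 mRNA was 12.5 RPKM with DMSO and 32.2 RPKM with Silvestrol, 2.57-fold, a log2 change of 1.36 with a 95% counting interval of 1.27 to 1.46 and above that of nearly all genes tested. The mRNA thus differed more than the footprints did. At 1 h the SNAI2 RF level was 41.8 RPKM with DMSO and 40.5 RPKM with Silvestrol, a log2 difference of -0.05 where the median gene was at -0.18.

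ZEB1 followed the same order at a smaller size. Its RF level at 2 h was 25.1 RPKM with DMSO and 33.6 RPKM with Silvestrol in passage 3, and 23.9 and 31.9 RPKM in passage 4. The groups did not overlap, and the ratio was 1.34-fold in both passages. The edgeR log2 change was 0.54 ± 0.14 (SE; adjusted p = 0.0705), and 0.54 ± 0.11 with the block (edgeR adjusted p = 4.44e-06). ZEB1 mRNA was 7.46 RPKM with DMSO and 15.1 RPKM with Silvestrol, 2.03-fold, at percentile 95.7. An mRNA ratio of at least 2 was found in 4.7% of genes, and SNAI2 and ZEB1 were among them. Unlike SNAI2, ZEB1 already had a higher RF level at 1 h, 32.5 RPKM with Silvestrol against 25.8 RPKM with DMSO and 29.1 RPKM in untreated cells.

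ZEB2, the paralog of ZEB1, had RF levels at 2 h of 4.00 and 4.28 RPKM (DMSO and Silvestrol) in passage 3 and of 2.95 and 4.70 RPKM in passage 4. The passages differed in size, with log2 changes of 0.10 and 0.67, and the passage 4 values rested on 89 and 60 reads. In edgeR this gave a log2 change of 0.48 ± 0.25 (SE; adjusted p = 0.261), and 0.44 ± 0.19 with the block (edgeR adjusted p = 0.0375). Without the block, it was 0.76 when DMSO passage 3 was left out and 0.27 without DMSO passage 4. Its mRNA was 1.16 RPKM with DMSO and 1.76 RPKM with Silvestrol, 1.52-fold. ZEB2 thus stood with SNAI2 and ZEB1 in having a higher mRNA level in the Silvestrol library.

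In SNAIL (SNAI1) the footprint levels with Silvestrol were above those with DMSO in both passages and the mRNA level was not. Its RF level at 2 h was 2.56 RPKM with DMSO and 6.02 RPKM with Silvestrol in passage 3, and 1.10 and 2.96 RPKM in passage 4. The ratios of 2.35-fold and 2.7-fold were the largest of the 7 members tested, but the reads were few: 68 and 78 in passage 3, and 7 and 8 in passage 4, where the 95% counting interval of the log2 change reached from -0.23 to 3.13. Its edgeR log2 change was 1.41 ± 0.58 (SE; adjusted p = 0.173), and 1.40 ± 0.38 with the block (edgeR adjusted p = 6.41e-04). Leaving out DMSO passage 3 gave 2.31 and leaving out Silvestrol passage 3 gave 0.67, without the block. SNAI1 mRNA was 1.77 RPKM with DMSO (188 reads) and 1.37 RPKM with Silvestrol (75 reads), a log2 change of -0.37 with an interval of -0.78 to 0.02. At 1 h the RF level was 2.33 RPKM with DMSO and 2.91 RPKM with Silvestrol, with untreated cells at 2.03 RPKM.

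Vimentin had ratios close to 1 with Silvestrol. VIM had RF levels at 2 h of 6454 and 6808 RPKM (DMSO and Silvestrol) in passage 3 and of 4789 and 5387 RPKM in passage 4. The passages lay further apart than the treatments, and the groups overlapped. The edgeR log2 change was 0.26 ± 0.19 (SE; adjusted p = 0.420), and with the block 0.26 ± 0.07 (edgeR adjusted p = 3.15e-04), a ratio of RPKM of 1.05-fold and 1.13-fold. Without the block it was 0.48 when DMSO passage 3 was left out, 0.41 without Silvestrol passage 4, and 0.06 without either DMSO passage 4 or Silvestrol passage 3. VIM mRNA was 1461 RPKM with DMSO and 1425 RPKM with Silvestrol. With up to 306853 reads per library, the VIM values carried the smallest counting error of the set, and at 1 h they were 6902 RPKM with DMSO and 6585 RPKM with Silvestrol.

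Fibronectin was the member with lower values within each passage. FN1 had RF levels at 2 h of 18.4 RPKM with DMSO and 13.3 RPKM with Silvestrol in passage 3, and of 33.0 and 19.4 RPKM in passage 4. Silvestrol was the lower library within each passage, yet the Silvestrol value of passage 4 lay above the DMSO value of passage 3, so the groups overlapped. Its log2 change by edgeR was -0.53 ± 0.30 (SE; adjusted p = 0.284), and -0.48 ± 0.10 with the block (edgeR adjusted p = 7.57e-06). Its size rested on single libraries: without the block it was -0.87 when DMSO passage 3 was left out, -0.10 without DMSO passage 4 and -0.34 without Silvestrol passage 3. At 1 h the FN1 RF level was 21.4 RPKM with DMSO and 17.0 RPKM with Silvestrol. FN1 mRNA was 87.1 RPKM with DMSO and 59.0 RPKM with Silvestrol, 0.677-fold, a log2 change of -0.56 that lay between the RF changes of -0.47 and -0.77 of the passages. FN1 footprints and mRNA thus differed by like amounts.

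N-cadherin (CDH2) did not pass the minimum levels and entered no test. It had 63 reads with DMSO and 13 with Silvestrol at 2 h in passage 3, 0.664 and 0.280 RPKM, and 7 and 3 reads in passage 4, 0.310 and 0.315 RPKM. The 95% counting interval of the log2 change was -2.23 to -0.37 in passage 3 and -2.56 to 2.15 in passage 4, so the lower value was beyond counting error in passage 3 alone. CDH2 mRNA was 0.254 RPKM with DMSO and 0.261 RPKM with Silvestrol. CDH1 had 4 and 1 RF reads with Silvestrol at 2 h. YBX1 was counted with 5 and 3 reads under DMSO and Silvestrol at passage 3 and with 12 and 5 at passage 4, with an edgeR log2 change of -0.11 ± 1.56 (SE; adjusted p = 0.969) whose sign turned to 0.21 with the block (edgeR adjusted p = 0.857). For CDH1 and YBX1 no difference with Silvestrol was detectable at this depth.

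**Figure D2:**
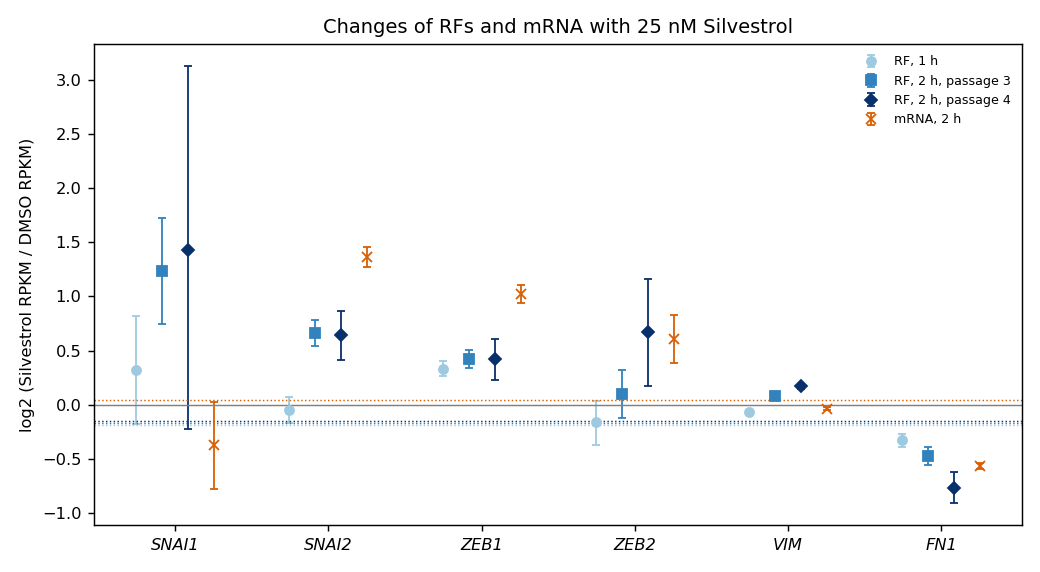
Log2 ratio of Silvestrol to DMSO RPKM for 6 members, for RFs at 1 h, RFs at 2 h in each passage, and mRNA at 2 h. Each point is a ratio of 2 libraries, bars are 95% intervals of the counting error, and dotted lines mark the median of all genes tested in the color of each comparison. The mRNA point lies above the RF points for SNAI2 and ZEB1 and below them for SNAI1, and all FN1 points lie below 0.

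Whether the members' TE differed was asked in 2 ways. In an edgeR model over the 6 libraries at 2 h, with the interaction of assay and treatment, the mRNA arm had 1 library per treatment and took its spread from the RF libraries. There 0 of the 7 members passed an adjusted p of 0.05 and 0.019% of genes did (24.9% at an unadjusted p under 0.05, with 0 members among them). DESeq2 called 0 members and 8.66% of genes, again with no adjusted p for SNAI1 and YBX1. With the passage as a block, SNAI1 was the 1 member called, with a log2 change of 1.91 ± 0.51 (SE; edgeR adjusted p = 0.00699), where 23.1% of genes were called higher. Without the block its log2 change was 1.91 ± 0.95 (edgeR adjusted p = 0.281), and 1.13 when Silvestrol passage 3 was left out. SNAI2 had a log2 TE change of -0.46 ± 0.36 (edgeR adjusted p = 0.468) and ZEB1 of -0.35 ± 0.26 (edgeR adjusted p = 0.455), and both stayed above 0.05 with the block, at 0.0884 and 0.128.

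The TE change was also taken as a z-score from the RPKM values of passage 3, over all genes tested and with -1.5 and 1.5 as thresholds, below and above which lay 6.57% and 4.7% of genes. SNAI1 had a z-score of 1.95 (percentile 98.5) and was the 1 member beyond a threshold. With the RFs of passage 4 and the same mRNA libraries its z-score was 2.20, and 4.78% of genes were above 1.5. YBX1 had 1.07, VIM 0.43, FN1 0.41, ZEB2 -0.19, ZEB1 -0.29 and SNAI2 -0.39, so none of the 7 members was below -1.5. With the RFs of passage 4, ZEB2 turned to 0.38, and the others were 0.53 for VIM, 0.35 for YBX1, 0.10 for FN1, -0.32 for ZEB1 and -0.44 for SNAI2. With untreated RFs as control YBX1 was also past the threshold, at 1.53, where 4.64% of genes were above 1.5, and SNAI2 was at -0.09. That YBX1 score set 3 RF reads in untreated cells (0.705 RPKM) against 3 with Silvestrol (1.20 RPKM). With DMSO YBX1 had 0.992 RPKM in passage 3, so it passed the minimum only through the Silvestrol library. The TE of SNAI2 was 3.81 with DMSO and 2.35 with Silvestrol and that of ZEB1 was 3.37 and 2.22, which are lower values beside higher footprints. The values of FN1 were 0.212 and 0.225, and those of VIM were 4.42 and 4.78.

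**Figure D3:**
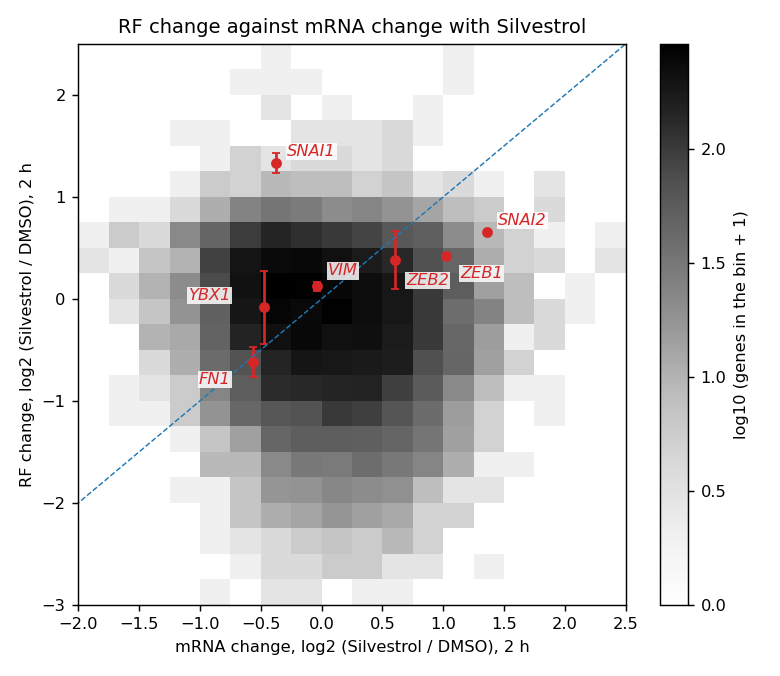
RF change against mRNA change with Silvestrol at 2 h, both as log2 RPKM ratios, for the 10505 genes tested (gray squares, log10 of the number of genes per bin) and the 7 members (red). Red points are the mean of the passages, bars reach to each passage, and the dashed line marks equal change. SNAI1 lies above the line with an mRNA change below 0, SNAI2 and ZEB1 lie below it at mRNA changes above 1, and FN1 lies near it.

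The genes with a pattern most like a member were taken by the Euclidean distance over 4 log2 changes (RFs at 1 h, RFs at 2 h in each passage, and mRNA at 2 h), among 8027 genes with a mean of at least 200 RF reads. Nearest to SNAI2 were SGK1 at a distance of 0.345 and TIPARP at 0.366, with mRNA changes of 1.25 and 1.26 on the log2 scale. Nearest to ZEB1 were AIMP1 at 0.1 and MTPAP at 0.119. For VIM these were TUFT1 at 0.0353 and STK35 at 0.0666. SNAI2 was farther from its neighbors than VIM and ZEB1 were.

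Genes for proteins that control the stability and signaling of SNAIL had lower footprints in part. Of the 9 tested regulators of this kind (kinases, ubiquitin ligases and deubiquitinases among them), 3 had lower RFs and 0 higher by edgeR, beside 7.88% and 2.47% of all genes, and the median log2 RF change was -0.97, against -0.01 for all genes tested. GSK3B, the kinase that marks SNAIL for degradation, fell from 33.5 to 3.72 RPKM in passage 3 and from 31.2 to 3.34 RPKM in passage 4. Every Silvestrol value was far below every DMSO value, for the 1 entry kept of several under this symbol. The edgeR log2 change was -2.96 ± 0.20 (SE; adjusted p = 0.0156), while GSK3B mRNA was 6.60 RPKM with DMSO and 8.27 RPKM with Silvestrol, and at 1 h the RF log2 change was already -2.54. The deubiquitinase USP9X fell by 1.56 ± 0.22 on the log2 scale (edgeR adjusted p = 0.0227) and the kinase LATS2 fell by 1.51 ± 0.27 (edgeR adjusted p = 0.0337). The ubiquitin ligase BTRC had a log2 change of 0.31 (edgeR adjusted p = 0.305), the 1 positive value of the list. The TE z-score was below -1.5 in 4 of the 9 genes (6.57% of all genes), and with the passage as a block 7 of the 9 passed with lower RFs (28.1% of all genes).

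The partners through which the EMT repressors act were also lower in part. Of 7 cofactors, CTBP1, the corepressor bound by ZEB1 and ZEB2, fell by 0.94 ± 0.16 on the log2 scale (edgeR adjusted p = 0.0305), and KDM1A, the histone demethylase recruited by SNAIL, fell by 0.69 ± 0.14 (edgeR adjusted p = 0.0426). None passed with higher RFs, and the median of the list was -0.16. The 2 lower genes stood beside 7.88% of all genes, and the block made it 3 of the 7, beside 28.1%. Among 7 other EMT transcription factors that could be tested, ETS1 fell from 326 to 47.9 RPKM in passage 3 and from 230.5 to 55.8 RPKM in passage 4, a log2 change of -2.30 ± 0.22 (edgeR adjusted p = 0.0159). SOX9 fell by 1.24 ± 0.21 (edgeR adjusted p = 0.0314), 0 passed with higher RFs, and the median was -0.26, with 5 of the 7 changes below 0. With the block 3 were lower and 1 higher, where 28.1% and 25.0% of all genes were. ETS1 mRNA was 31.5 RPKM with DMSO and 62.9 RPKM with Silvestrol, and SOX9 mRNA was 27.6 and 56.0 RPKM. Both factors therefore had mRNA ratios like those of SNAI2 and ZEB1, and RF changes of the opposite sign.

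Of 21 other mesenchymal and invasion genes tested, only MMP14 passed by edgeR without the block, beside 7.88% of all genes lower and 2.47% higher. MMP14, a membrane-bound matrix protease, fell from 78.5 to 30.4 RPKM in passage 3 and from 141.5 to 38.2 RPKM in passage 4, a log2 change of -1.54 ± 0.29 (edgeR adjusted p = 0.0361). The median of the list was 0.16, and with the block 2 were lower and 9 higher, beside 28.1% and 25.0% of all genes. Of 15 epithelial and junction genes tested, 3 passed with lower RFs, beside 7.88% of all genes: CTNND1 (p120 catenin) with -1.82 ± 0.12 (edgeR adjusted p = 0.0156), TJP1 (ZO-1) with -1.06 ± 0.13 (edgeR adjusted p = 0.0197) and CTNNB1 (beta-catenin) with -0.70 ± 0.13 (edgeR adjusted p = 0.0386). Their median log2 change was 0.09, and 0 genes of either list passed with higher RFs. With the block 3 of the 15 were lower and 5 higher, where 28.1% and 25.0% of all genes were. Their TE z-score was above 1.5 in 4 of the 15 (4.7% of all genes), KRT18, MARVELD2, JUP and ESRP2, and below -1.5 in 1, TJP1 (6.57% of all genes). MARVELD2 had 0.758 RPKM of RFs with DMSO and 1.58 RPKM with Silvestrol in passage 3. It thus passed the minimum only through the Silvestrol library, and its z-score is not independent of that filter. Among 6 tested YB-1 relatives and RNA-binding partners 0 passed by edgeR, with 1 lower and 2 higher under the block (28.1% and 25.0% of all genes), and the median was 0.06. When either Silvestrol library was left out, that arm held 1 library, assumed to vary like the other group, and edgeR called 0 of 10505 genes, with 1617 (without passage 3) and 1930 (without passage 4) at an unadjusted p under 0.05, while DESeq2 on all 4 libraries called 1571. With any 1 library left out, the log2 change of GSK3B lay between -3.14 and -2.88 and that of CTNND1 between -1.84 and -1.79, while the ranges were wider for ETS1 (-2.554 to -1.997), LATS2 (-1.77 to -1.19) and MMP14 (-1.89 to -1.10).

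**Figure D4:**
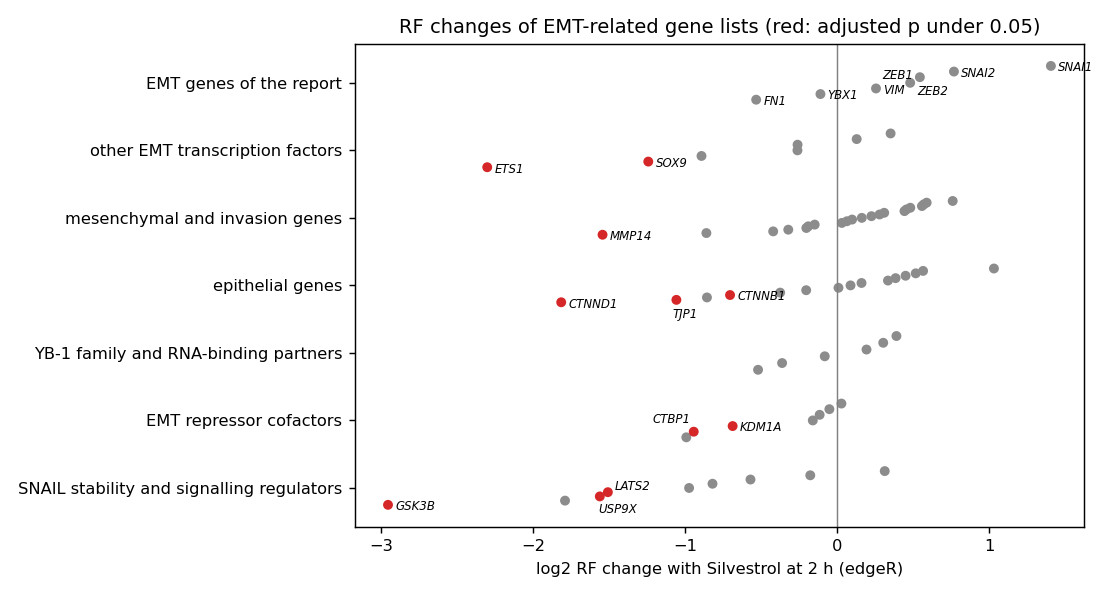
Log2 RF changes with Silvestrol at 2 h from edgeR for the members and for 6 lists of EMT-related genes, 1 point per gene tested, in red where the adjusted p was under 0.05. Points within a row are spread vertically in order of their value. All red points lie below 0, GSK3B at -2.96 and ETS1 at -2.30 the farthest, and the 7 members lie between -0.53 and 1.41.

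With INK128, YBX1 and VIM had the lowest TE changes of the members and SNAI2 the highest of the 4 above the minimum levels. There was 1 library per group, so these values have no replicate check and no test. The median log2 change over 7102 genes was 0.01 for RFs and -1.17 for total RNA, so each change is read against those medians. YBX1 had 332 FPKM of RFs with DMSO and 110.4 FPKM with INK128, a log2 change of -1.59 at percentile 0.7 of all genes, while its total RNA went from 18.1 to 5.79 FPKM, a log2 change of -1.64. Its TE z-score was -2.08 (percentile 3.4), the 1 member below -1.5, where 5.58% of genes lay. With the stricter minimum of 5 FPKM the z-score of YBX1 was -0.58, and with a median-based score -3.86, so its place below the threshold depends on the genes it is scored against.

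VIM had 1852 FPKM of RFs with DMSO and 1299 FPKM with INK128, a log2 change of -0.51 at percentile 4.2, and 74.9 and 31.7 FPKM of total RNA. Its z-score was -0.77, within the thresholds. With the stricter minimum it was 0.10 and with the median-based score -1.57, past the threshold, where 12.3% of genes then lay, so its place depends on the scoring too. FN1 had 104 and 119 FPKM of RFs and 6.46 and 3.17 FPKM of total RNA, with a z-score of 0.20. SNAI2 had 22.6 and 27.1 FPKM of RFs and 1.29 and 0.487 FPKM of total RNA, with a z-score of 1.08 (percentile 94.6), where 1.75% of genes were above 1.5. The median-based score of SNAI2 was 1.66, above the threshold, as for 6.86% of genes. SLUG footprints were thus not lower with either drug in the libraries at 2 h.

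The members below the minimum levels of this experiment were ZEB1, ZEB2, CDH1 and CDH2. ZEB1 had 4.99 FPKM of RFs with DMSO and 4.79 FPKM with INK128, and 0.299 and 0.108 FPKM of total RNA. ZEB2 had 0.771 and 0.861 FPKM of RFs, CDH1 had 0.172 and 0.294 FPKM, and CDH2 had 0.110 and 0.175 FPKM. When scored over all genes with values, the median gene had a z-score of 0.08. On that scale ZEB1 had 0.44, ZEB2 0.40, CDH1 0.29 and CDH2 1.19. By RF level with DMSO the members of this experiment stood in the order VIM, YBX1, FN1, SNAI2, ZEB1, ZEB2, CDH1 and CDH2. VIM was first in both experiments, and CDH1 was above CDH2 in this one and below it in the Silvestrol experiment.

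**Figure D5:**
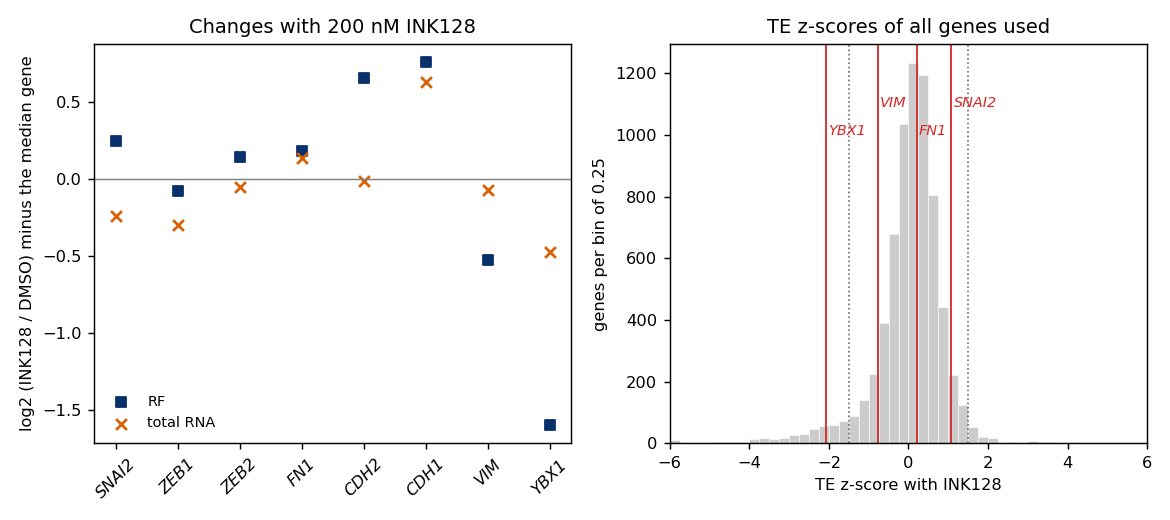
Left, log2 ratio of INK128 to DMSO FPKM minus that of the median gene, for RFs (squares) and total RNA (crosses) of the 8 listed members, 1 library per group. Right, histogram of the TE z-scores of 7102 genes with 4 members as red lines and dotted lines at -1.5 and 1.5. YBX1 lies at -2.08, VIM at -0.77, FN1 at 0.20 and SNAI2 at 1.08.

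YBX1, VIM, MTA1 and CD44 are known together as invasion genes whose translation depends on mTOR. Their z-scores with INK128 were -2.08, -0.77, -0.89 and -0.09, with a median of -0.83 against 0.13 for all genes. With Silvestrol 0 of the 4 passed for RFs by edgeR, beside 7.88% of all genes lower and 2.47% higher, and CD44 had a log2 change of 0.76 ± 0.28 (SE; adjusted p = 0.135). Under the block 3 of the 4 were called higher, where 25.0% of all genes were. Among the YB-1 relatives and RNA-binding partners, PABPC1, the poly(A)-binding protein and a known TOP mRNA, had an INK128 z-score of -3.92 and YBX3 one of -1.75, so 2 of 5 with values were below -1.5, beside 5.58% of all genes. The other lists had 0 genes below -1.5 with INK128.

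The starts of the transcripts are shown for YBX1 and VIM, the members lowest with INK128, because a TOP sequence begins at the cap. They were read from GRCh37 at the annotated start of the MANE Select transcript, with runs of at least 4 pyrimidines in capitals.
YBX1, chr1:43148089-43148108, + strand: aTTCTCgctagttcgatcgg
VIM, chr10:17270240-17270259, + strand: gggaggcccacgtatggcgc
The YBX1 start had a run of 5 pyrimidines from its second base, and VIM had no such run in its first 20 bases. Of the other members whose starts were read, ZEB2, TWIST1 and CDH2 held a run, none of them from the first base, and SNAI1, ZEB1, CDH1 and FN1 held none. The annotated start can differ from the start used in these cells, which was not measured here.

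The annotated 5′ UTRs of the members ranged from percentile 4.3 (ZEB1) to percentile 90.9 (VIM) in length, where the median over 9066 genes with an annotated transcript was 134 nucleotides. They had 80 nucleotides in SNAI1 (chr20:48599517-48605423, + strand), 164 in SNAI2 (chromosome 8), 19 in ZEB1 (chr10:31608145-31818732, + strand), 250 in ZEB2 (chr2:145141648-145277686, - strand) and 315 in TWIST1 (chr7:19155091-19157259, - strand). In the remaining genes they had 124 in CDH1 (chr16:68771195-68869440, + strand), 108 in CDH2 (chr18:25530930-25757094, - strand), 266 in FN1 (chr2:216225588-216300791, - strand), 148 in YBX1 (chr1:43148089-43169476, + strand) and 431 in VIM (chr10:17270240-17279592, + strand). VIM had the longest, with a predicted folding energy of -154.8 kcal/mol. None of the 10 held 4 CGG repeats in a row, which 4.71% of genes did. The longest annotated 5′ UTR was longer for SNAI2 (358), ZEB1 (678), ZEB2 (841), CDH2 (499) and FN1 (271). The median of the longest 5′ UTRs over the same genes was 316 nucleotides. Which transcript was used in these cells was not tested.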

How the data were processed

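MDA-MB-231 cells were profiled in 13 libraries. In the Silvestrol experiment rRNA reads were discarded, the others were mapped by Bowtie against hg19 with the canonical UCSC KnownGene set, and the authors deposited read counts for unique alignments together with RPKM values, which leave out non-unique positions. The submitters' processing notes name Bowtie2 version 2 and CASAVA version 1.8.1. FPKM values without counts were deposited for INK128, and the program behind them is not given in the sources used here. Columns of the authors' own comparisons (means of passages, log2 values, TE, its log2 change and a z-score) were not used. The TE columns deposited with INK128 are not ratios of the FPKM values beside them, so the INK128 TE and z-scores given here, from FPKM ratios, are on another scale than the authors' own. In all, 0 columns of per-sample values were left out.

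Repeated lines were dropped (25758 of 38897 were distinct). Of the 546 symbols with several distinct lines, that with the highest mean RF RPKM was kept. No member was among these symbols, and GSK3B was. KRT8 and OCLN have 2 lines with reads in different libraries, so their kept lines hold a 0 in some libraries that is not a lack of reads, and neither was tested. CSDA was read as YBX3. Genes tested had an RPKM above 0 in each 2 h library of passage 3, with minimum means of 1 RPKM for RFs and 0.3 RPKM for mRNA (or the same in FPKM). The quasi-likelihood test of edgeR 4.0.16 (R 4.3.3, TMM factors, Benjamini-Hochberg threshold 0.05) was run on the RF counts of 2 DMSO and 2 Silvestrol libraries. TE was tested as the interaction in 1 edgeR model over the 6 libraries, where mRNA has 1 library per treatment. The z-score is the log2 change in TE minus its mean, over its SD. The scripts were tested on simulated data.

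Passage numbers in the labels pair the 2 h libraries: their deviations from the group means had a correlation of r = 0.662 between treatments, over 10505 genes. The block is therefore given beside each result whose call it changes. Intervals of single ratios are 95% intervals of counting error only, since PCR reads are not independent molecules.

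The text names the 10 members, the genes of 6 further lists with the largest called change (up to 3) or the lowest and highest INK128 z-scores (up to 2 each), and the 2 nearest genes of 3 members. The naming of BTRC, TWIST2, KRT8, KRT18, JUP, DSP, OCLN, ESRP2 and MARVELD2 followed a look at their values. A listed gene is not reported here and was left out of its lists. The members and lists were chosen with earlier results of these data known. Transcripts came from GENCODE version 44 lifted to GRCh37, promoters and starts from the GRCh37 genome, and folding energies from RNAfold 2.7.2. Alternatives were DESeq2 1.42.0, other size factors, no filter, an offset for counted length, pseudocounts of 0.5 and 0.1, stricter or no minimums, a median-based z-score, untreated RFs as control, and each library left out. Python 3.11.15, numpy 2.4.6, pandas 2.3.3, scipy 1.17.1 and matplotlib 3.10.9 were used.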

Additional observations from a re-analysis of the deposited data

Results flagged for a closer look

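In 3 members the RF change with Silvestrol at 1 h had the opposite sign to the change in both passages at 2 h, on the RPKM scale. SNAI2 had a log2 change of -0.047 at 1 h and 0.66 and 0.64 at 2 h, ZEB2 had -0.164 at 1 h and 0.10 and 0.67 at 2 h, and VIM had -0.0679 at 1 h and 0.08 and 0.17 at 2 h. Relative to the median gene at 1 h, which was at -0.18, all 3 lay above it, so the sign at 1 h turns with the scaling. Against untreated cells in place of DMSO at 1 h, SNAI2 turned to 0.025, while ZEB2 (-0.236) and VIM (-0.0945) stayed below 0. There was 1 library per treatment at 1 h, and the difference between the times was not tested.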

How the results depend on the processing

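Depth limits the values of SNAI1 (7 and 8 RF reads in passage 4), CDH1, CDH2 and YBX1. In the RF comparison 828 genes were lower and 259 higher, with 0 members called in either direction. DESeq2 called 563 genes higher, with 1 member. The replicate block of the passages called 2952 genes lower and 2631 higher, with 1 member lower and 5 higher, and with the offset for counted length, which was added after seeing the data, 2907 and 2551, with 1 and 5. Leaving out 1 library gave between 0 and 973 genes lower and between 0 and 325 higher, with between 0 and 1 members each way: FN1 passed without DMSO passage 3 (edgeR adjusted p = 0.0465) and SNAI2 without DMSO passage 4 (edgeR adjusted p = 0.0367). Both counts of 0 genes came from leaving out a Silvestrol library. YBX1 turned from -0.11 to 0.0775 with DESeq2 and to 0.21 with the replicate block, while block and offset together gave -0.041. Leaving out 1 library put YBX1 between -1.67 and 1.79. In the TE model 2 genes were lower and 0 higher. The other size factors and the offset for counted length gave 0 lower, DESeq2 538 lower and 372 higher, no filter 298 and 58, the replicate block 2406 and 2424 with 1 member higher, and the block with the offset 2425 and 2401 with 1 member higher. Leaving out 1 library gave between 0 and 750 lower and between 0 and 461 higher. ZEB2 turned from 0.01 to -0.0015 without the filter, to -0.017 with the replicate block, and to -0.016 with block and offset. Leaving out 1 library put ZEB2 between -0.24 and 0.27, FN1 (0.14) between -0.21 and 0.56, and YBX1 (0.43) between -1.02 and 2.20. With INK128 the z-score was below -1.5 in 396 and above 1.5 in 124 genes, in 870 and 487 with the median-based score, in 44 and 12 with the stricter minimum and in 736 and 488 without one. The replicate block changed no call of a member other than those given, and the cause of these moves was not tested.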
